A study of Mus musculus with 2 samples.

Results

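The GIMAP proteins (GTPases of immunity-associated proteins) are encoded in the mouse by a compact gene cluster, and they were examined here in adipose regulatory T cells (Tregs). The members were the rows of the count table named Gimap1, Gimap3, Gimap4, Gimap5, Gimap6, Gimap7, Gimap8 and Gimap9, and all 8 were among the 10219 listed genes. RNA sequencing had been carried out on Tregs sorted from fat of C57BL/6 mice 4 months old. There was 1 library of the Foxp3Cre control and 1 library of Hif1afl/fl;Foxp3Cre, called the knockout library below, so both carried the Cre recombinase directed by Foxp3, and 1 also carried floxed alleles of Hif1a, which encodes the HIF-1 subunit that is degraded when oxygen is plentiful. The labels do not give the number of mice pooled, the surface markers of the sort or the floxed part of Hif1a.

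GIMAP proteins share a GTP-binding domain of the AIG1 type, first described in plants, and many of them sit on the membranes of intracellular organelles. They are known chiefly from lymphocytes, where they are needed for the survival and quiescence of T cells. Mice or rats that lack Gimap5 lose peripheral T cells, and mouse Gimap1 is required for the survival of mature lymphocytes. Tregs are the Foxp3-expressing T cells that restrain immune responses, and those resident in fat are marked by the IL-33 receptor ST2 (Il1rl1), Klrg1 and Pparg.

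Total counts over the listed genes came to 13472317 for the control and 11337415 for the knockout. Counts were scaled by TMM to counts per 1000000 (CPM). Because each genotype is a lone library, the spread between animals is unknown, p-values are not given and every difference lacks a replicate check; the intervals are 95% intervals that cover counting error only. Hif1a stood at 1273 CPM in the control and 780 CPM in the knockout, 1.63-fold lower (counting interval 1.59 to 1.68), a limited check of the genotype because the floxed part is not known. The 12 pan T cell markers each differed by less than 2-fold, and their median log2 ratio was 0.17. Over all listed genes the median was 0.0054, and 19.3% reached 2-fold in either direction. Foxp3 itself, the marker that defines Tregs, was at 104 CPM in the control and 46.4 CPM in the knockout, 2.24-fold lower (2.02 to 2.48). The Treg markers as a list were lower in 8 of 8 cases, from Ikzf2 at a log2 ratio of -0.14 to Klrg1 at -5.18, and all 6 listed macrophage markers of 17 were higher, with a median log2 ratio of 5.18. Together the macrophage markers took 0.0242% of the control counts and 0.371% of the knockout counts. Of the 11 other macrophage markers, none was among the listed genes. No listed gene had under 12 counts in the knockout or under 14 counts in the control. Absence therefore does not show that a gene was weakly counted in both libraries.

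Between the libraries, of the 8 members, 0 reached 2-fold in either direction (log2 ratios of CPM + 0.5), against 19.3% of all listed genes, made up of 10.9% that were higher and 8.41% that were lower by that factor. Gimap3, Gimap4 and Gimap6 had higher levels in the knockout library and the other 5 members had lower levels. The member ratios ran from -0.66 for Gimap5 to 0.76 for Gimap4, with a median of -0.10 beside 0.0054 over all listed genes; the member median was 0.082 after a correction for a trend of the ratio with transcript length. The median size of the ratio, regardless of sign, was 0.38 for the members and 0.44 for all listed genes, and 4 of 8 members lay between the quartiles of all listed genes, so in size the members were close to the background. The counting interval of the fold excluded 1 for 8 of 8 members, as for 74.1% of all listed genes; every member had at least 1977 counts in each library. In such bulk libraries fewer cells of a type and less RNA per cell cannot be told apart.

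**Figure D1:**
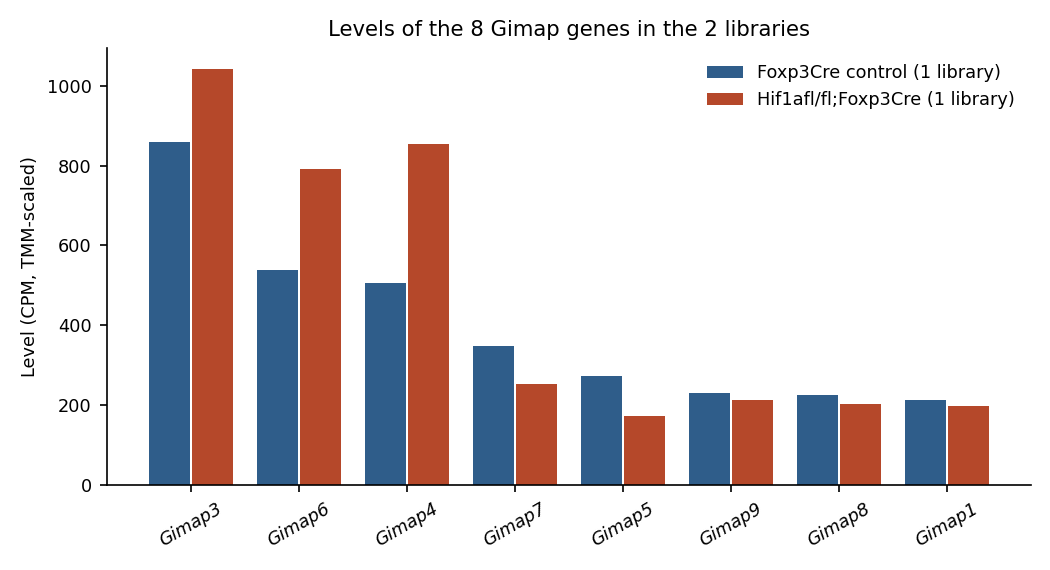
Levels of the 8 Gimap genes in CPM (TMM-scaled) in the control library (blue bars) and the knockout library (red bars), 1 library each and therefore without error bars. Gimap3, Gimap6 and Gimap4 are the highest in both libraries and higher in the knockout library, and the other 5 genes are lower there.

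Among the members with higher levels in the knockout library, Gimap4 differed most. Gimap4, whose loss in mice alters the progression of T cell apoptosis, had 6718 counts or 505 CPM in the control and 9807 counts or 854 CPM in the knockout. It was 1.69-fold higher (counting interval 1.64 to 1.74). Gimap6, a binding partner of the autophagy protein GABARAPL2, had 537 CPM in the control, from 7144 counts, and 792 CPM in the knockout, from 9100 counts. That level was 1.47-fold higher (1.43 to 1.52). Gimap3, the close relative of Gimap5 known in mice for its part in the segregation of mitochondrial DNA, was the most abundant member, with 859 CPM from 11414 counts in the control and 1043 CPM from 11980 counts in the knockout. It was 1.21-fold higher (1.18 to 1.25).

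Among the members with lower levels, Gimap5 and Gimap7 stood apart from the other 3. Gimap5, the lysosomal member needed for T cell survival, had 273 CPM in the control (3626 counts) and 172 CPM in the knockout (1977 counts), a level 1.59-fold lower (1.5 to 1.68). Gimap7, whose human counterpart stimulates GTP hydrolysis by a related GIMAP protein, had 349 CPM (4642 counts) in the control and 252 CPM (2895 counts) in the knockout, which is 1.39-fold lower (1.32 to 1.45). Gimap8, which has the longest coding sequence of the family, went from 224 CPM in the control to 203 CPM in the knockout, 1.10-fold lower (1.04 to 1.16). Gimap9 stood at 229 CPM and 212 CPM in that order, 1.08-fold lower (1.02 to 1.14). Gimap1 stood at 212 CPM and 198 CPM, 1.07-fold lower (1.01 to 1.13). The directions of Gimap1 and Gimap9 depended on the processing: after a correction for a trend of the ratio with transcript length their log2 ratios were 0.08 and 0.08. At the lengths of Gimap1, Gimap9 and Gimap7 that trend lay at -0.18, -0.20 and -0.22, while at those of Gimap6 and Gimap8 it lay at -0.0058 and -0.0074. Its part in the ratios was not tested beyond this correction. The other 6 members kept their direction under each scaling, pseudocount and correction tried.

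The genes lie side by side on chromosome 6, in the order Gimap8, Gimap9, Gimap4, Gimap6, Gimap7, Gimap1, Gimap5 and Gimap3 in the GENCODE M21 annotation of GRCm38. Gimap6 and Gimap3 are on the minus strand and the other 6 on the plus strand. The direction was not common to the whole cluster: Gimap4 and Gimap6, in the middle, and Gimap3, at the end, had the higher levels in the knockout library, and Gimap7, Gimap1 and Gimap5 between them had the lower ones. Gimap5 and Gimap3, adjacent and similar in sequence, had log2 ratios of opposite sign, -0.66 and 0.28. The longest coding sequences encode between 291 and 328 amino acids in 7 members and 688 in Gimap8.

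**Figure D2:**
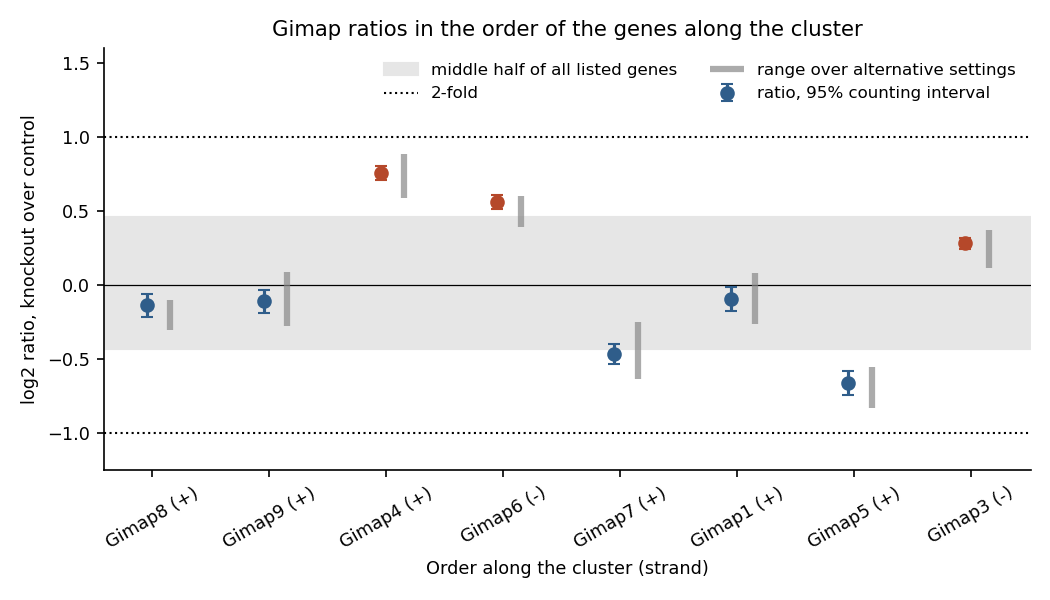
Log2 ratio of knockout over control for each Gimap gene, in the order of the genes along the cluster with the strand in parentheses. Points are the ratios with 95% counting intervals (red above 0, blue below), grey bars are the range over the alternative scalings, pseudocounts and the length correction, the grey band runs from the lower to the upper quartile of all listed genes (-0.43 to 0.45) and dotted lines mark 2-fold. Gimap1 and Gimap9 are the 2 genes whose grey bars cross 0.

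The promoters are shown because members that lie side by side differed in direction. RefSeq (GRCm38.p6) gave a window of 300 bases, 250 before and 50 after the start, for all 8 members, with a second window for Gimap8. The count table has no coordinates, and the build named in the submitters' notes is mm8, so these positions belong to the reference only. The windows of both ends of the ratio are shown, Gimap4 and Gimap6 as the highest and Gimap5 and Gimap7 as the lowest. Capitals mark matches on either strand to the letters AGGAAG or CGGAAG, the core of sites for ETS transcription factors such as Ets1, and to ACGTG or GCGTG, the core of the hypoxia response element bound by HIF-1. They lie at chr6:48684328-48684627 on the plus strand for Gimap4, at chr6:48708195-48708494 on the minus strand for Gimap6, at chr6:48745947-48746246 on the plus strand for Gimap5 and at chr6:48718371-48718670 on the plus strand for Gimap7.
Gimap4: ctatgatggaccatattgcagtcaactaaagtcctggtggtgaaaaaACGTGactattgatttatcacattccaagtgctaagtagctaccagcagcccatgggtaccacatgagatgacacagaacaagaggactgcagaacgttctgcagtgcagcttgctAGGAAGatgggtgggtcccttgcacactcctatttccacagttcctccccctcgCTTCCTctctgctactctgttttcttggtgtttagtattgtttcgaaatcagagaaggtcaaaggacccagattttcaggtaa
Gimap6: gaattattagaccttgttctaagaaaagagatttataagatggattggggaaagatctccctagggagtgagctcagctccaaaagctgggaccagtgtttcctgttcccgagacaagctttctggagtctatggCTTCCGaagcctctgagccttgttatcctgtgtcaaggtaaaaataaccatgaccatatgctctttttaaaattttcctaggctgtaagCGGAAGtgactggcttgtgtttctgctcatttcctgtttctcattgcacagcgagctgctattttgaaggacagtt
Gimap5: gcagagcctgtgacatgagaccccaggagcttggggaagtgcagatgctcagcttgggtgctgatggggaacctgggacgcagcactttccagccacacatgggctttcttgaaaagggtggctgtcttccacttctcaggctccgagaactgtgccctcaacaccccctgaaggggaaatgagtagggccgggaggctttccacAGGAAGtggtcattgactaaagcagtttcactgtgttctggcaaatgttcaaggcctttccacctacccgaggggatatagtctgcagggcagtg
Gimap7: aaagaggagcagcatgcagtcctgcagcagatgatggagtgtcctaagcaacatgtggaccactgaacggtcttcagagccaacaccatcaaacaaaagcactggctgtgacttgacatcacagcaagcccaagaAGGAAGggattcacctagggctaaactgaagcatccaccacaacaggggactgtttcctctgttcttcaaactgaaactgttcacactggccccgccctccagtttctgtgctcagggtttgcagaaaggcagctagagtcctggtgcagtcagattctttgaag

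The ETS letters were found in the windows of 8 of 8 members, and in 46.3% of the 32544 promoter windows of 300 bases in the table. The hypoxia response letters were found in Gimap9, Gimap4 and Gimap1, which is 3 of 8, and in 44.0% of all windows. In Gimap4 the match starts 203 bases before the start of transcription. These 3 genes were at log2 ratios of -0.11, 0.76 and -0.10. RUNX letters, TGTGGT or TGCGGT, were in 4 of 8 members (Gimap9, Gimap4, Gimap7 and Gimap1) and in 22.4% of all windows. TCF/LEF letters, CTTTGAT or CTTTGAA, were found in Gimap7 alone among the members, FOXO letters, TGTTTAC, in Gimap3 alone, and KLF letters, GGGTGTGG or GGGCGTGG, in 0 of 8; their shares of all windows were 8.7%, 3.7% and 8.6%. Every search covered both strands. A match is a string of letters and not evidence of binding. The KLF letters GGGCGTGG contain the hypoxia response letters GCGTG.

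Compared per length, as CPM per kilobase of the longest coding transcript, the order of the members differed from that by CPM in both libraries. In the control library the order was Gimap3 (400 CPM per kilobase), Gimap4 (280), Gimap7 (275), Gimap6 (169), Gimap9 (165), Gimap1 (142), Gimap5 (140) and Gimap8 (70.9). The counting intervals of Gimap4 and Gimap7, of Gimap6 and Gimap9, and of Gimap1 and Gimap5 overlapped there. In the knockout library the order was Gimap3 (486 CPM per kilobase), Gimap4 (473), Gimap6 (249), Gimap7 (199), Gimap9 (153), Gimap1 (133), Gimap5 (88.1) and Gimap8 (64.4), and only the intervals of Gimap3 and Gimap4 overlapped. By this measure Gimap6 stood below Gimap7 in the control and above it in the knockout. In both libraries the family was abundant: per length, Gimap3 lay at percentile 97.7 of the listed genes in the control and 98.4 in the knockout library, and Gimap8, the lowest, at 88.6 and 88.4. With the union of all annotated exons as the length, Gimap4 at 465 CPM per kilobase stood above Gimap3 at 405 in the knockout, and Gimap9 at 129 above Gimap7 at 108 and Gimap8 at 55.0 above Gimap5 at 41.5 there. In the control Gimap6 at 154 then stood above Gimap7 at 150.2, so the crossing of Gimap6 and Gimap7 between the libraries is not seen with that length.

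Ratios between members need no scaling of the libraries. For each count of Gimap5 there were 1.85 counts of Gimap4 in the control and 4.96 in the knockout, a difference of 2.68-fold (exact conditional interval 2.51 to 2.85); these are the members at the ends of the ratio. For Gimap6 over Gimap7, which are adjacent, the ratio of counts was 1.54 in the control and 3.14 in the knockout, 2.04-fold apart (1.93 to 2.16). Such ratios still carry the trend with transcript length. After its correction the log2 ratio of Gimap7 moved from -0.47 to -0.25 and that of Gimap6 from 0.559 to 0.565. For Gimap3 over Gimap5, the pair of close relatives, it was 3.15 and 6.06, 1.93-fold apart (1.81 to 2.05). Gimap3, Gimap4 and Gimap6 together made up 72.2% of the family's counts in the knockout library (exact interval 71.7 to 72.6) and 59.6% in the control library (59.2 to 60.1). This grouping and these pairs were chosen after their values were seen. Gimap4 alone made up 15.8% of the family's counts in the control and 22.9% in the knockout, and Gimap5 made up 8.55% and 4.62%.

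**Figure D3:**
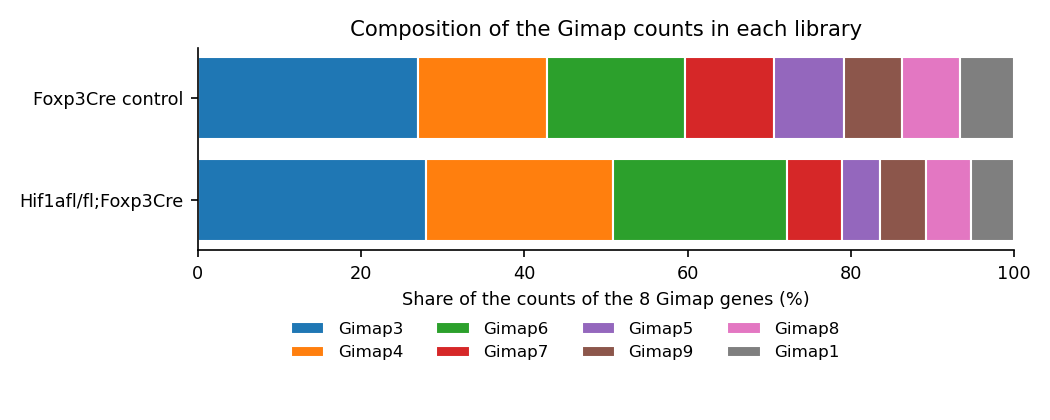
Share of the counts of the 8 Gimap genes taken by each gene, in percent, in the control library (upper bar) and the knockout library (lower bar), 1 library each. Gimap3, Gimap4 and Gimap6 fill 59.6% of the upper and 72.2% of the lower bar, and Gimap5 and Gimap7 are narrower in the lower bar.

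Summed over the family, GIMAP transcripts took 0.378% of the listed counts in the knockout library (exact interval 0.374 to 0.381) and 0.315% in the control library (0.312 to 0.318). The scaled sum was 3726 CPM against 3189 CPM, or 1.17-fold higher (1.15 to 1.18) in the knockout library. On the log2 scale this is 0.22, which became 0.055 with scaling on the pan T cell markers. The counts of Gimap3, Gimap4 and Gimap6 summed to 25276 in the control and 30887 in the knockout, within family sums of 42386 and 42809. Set against the summed counts of the 12 pan T cell markers, the family had 0.740 counts for each knockout T cell marker count and 0.681 for each control one, 1.09-fold apart (1.07 to 1.11). The pan T cell sum itself was 1.07-fold higher (1.06 to 1.09), with Trac at a log2 ratio of -0.48 and Lck at 0.91 as its ends. With a scaling that sets the median ratio of the pan T cell markers to 0, every log2 ratio moved by -0.17 and the members still lay within 2-fold, from -0.83 for Gimap5 to 0.59 for Gimap4. Over all listed genes that scaling turned 1115 higher and 859 lower genes into 898 and 1161. GIMAP genes are also expressed by endothelial cells, and 2 of 9 endothelial markers were listed: Pecam1 at 69.0 CPM in the knockout against 48.5 CPM in the control, and Kdr at 43.1 CPM against 2.78 CPM. The part of endothelial cells or macrophages in the Gimap levels was not tested. The summed level of the listed macrophage markers was 245 CPM in the control and 3657 CPM in the knockout.

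Some counts are less certain because GIMAP transcripts overlap other genes. Gm28053, a transcript unit that spans Gimap7, Gimap1 and Gimap5 on the same strand, was itself listed, with 104 control and 53 knockout counts, and was 1.70-fold lower (1.21 to 2.41). It shares 81 exonic bases with Gimap7, 198 with Gimap1 and 153 with Gimap5. Gimap1os, on the strand opposite to Gimap1, shares 1107 exonic bases with it, 36.0% of the exonic length of Gimap1. It had 285 control and 206 knockout counts, 1.20-fold lower with a counting interval of 0.996 to 1.44 that includes 1. Since the strand setting of the counting is not given, reads of Gimap1 and Gimap1os cannot be told apart with certainty. Of all 150-base windows of Gimap3 and Gimap5, the length of a read here, 0 were shared between the pair. Of 50-base windows, 190 were shared, 9.06% of those of Gimap3 and 9.98% of those of Gimap5.

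Genes that flank the cluster had log2 ratios on both sides of 0. Of 11 neighbouring genes in RefSeq (GRCm38.p6), 5 were listed. Tmem176b and Tmem176a, which encode membrane proteins abundant in myeloid cells and lie beyond Gimap3, were 2.42-fold (2.09 to 2.81) and 2.23-fold (1.86 to 2.67) higher in the knockout library, at 49.7 CPM against 20.5 CPM and 31.7 CPM against 14.2 CPM. Both overlap each other, so their counts are uncertain. The macrophage markers, with a median log2 ratio of 5.18, were higher in the same library. The part of macrophages in the Tmem176b and Tmem176a levels, at log2 ratios of 1.25 and 1.13, was not tested. On the other side, AI854703 was 3.04-fold lower (2.02 to 4.69), from 31 and 109 counts. Repin1 and Zfp775, which encode zinc finger proteins, had counting intervals that included no difference.

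Genes of proteins that GIMAPs are reported to bind, and of survival and autophagy factors around them, went both ways. Of 18 such genes 17 were listed, and their median log2 ratio was 0.35. Among them, 4 exceeded 2-fold upwards and 1 downwards, against 10.9% and 8.41% of all listed genes. Bcl2, the antiapoptotic founder of its family, had 39.3 CPM in the control and 244 CPM in the knockout, 6.20-fold higher (5.64 to 6.82). Bcl2l1, which encodes the antiapoptotic protein Bcl-xL, had 172 CPM and 38.4 CPM, 4.49-fold lower (4.05 to 4.98). The ratio of Bcl2 to Bcl2l1 counts was 0.228 in the control and 6.35 in the knockout, 27.8-fold apart (24.2 to 32.0). Bcl2l11, which encodes the proapoptotic protein Bim, was 3.20-fold higher (2.73 to 3.75) and Mcl1, another antiapoptotic gene, 2.30-fold higher (2.19 to 2.41). Bax, an executioner of mitochondrial apoptosis, was 1.74-fold lower (1.63 to 1.86).

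Among the autophagy genes of that list, Map1lc3a was 3.91-fold higher (2.65 to 5.92), from 115 and 34 counts. Gabarapl2, which encodes the partner of Gimap6, had 139 CPM in the control and 149 CPM in the knockout, a log2 ratio of 0.10 that is smaller than the shift of -0.17 between the scalings and changes sign with it. Gabarap, at 399 CPM in the control and 691 CPM in the knockout, was 1.73-fold higher (1.67 to 1.79). Map1lc3b, at 473 CPM and 536 CPM, was 1.13-fold higher (1.09 to 1.17). Atg5 and Becn1, which act in the formation of autophagosomes, were 1.31-fold (1.20 to 1.43) and 1.30-fold (1.18 to 1.42) lower. Gsk3b, the kinase linked to Gimap5 in T cells, was 1.28-fold higher (1.18 to 1.39).

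Genes of naive and quiescent T cells, the state with which GIMAP expression is associated, had higher levels in the knockout library in 19 of 20 cases. All 20 were listed. Of these, 9 exceeded 2-fold upwards and 0 downwards, against 10.9% and 8.41% of all listed genes. The median log2 ratio was 0.73, beside 0.0054 over all listed genes. Tcf7, which encodes the T cell factor TCF-1, and Bach2, a repressor of effector differentiation, were 31.9-fold (25.9 to 39.7) and 18.0-fold (13.6 to 24.3) higher. The homing genes S1pr1 and Ccr7 and the transcription factor gene Klf2 were 4.71-fold, 2.84-fold and 2.61-fold higher. Il7r, the IL-7 receptor chain, was 1.26-fold lower (1.22 to 1.30). Btg1, an antiproliferative gene and the most abundant of the list at 1285 CPM against 1246 CPM, had a log2 ratio of 0.04. Runx1 had a log2 ratio of 0.07, with a counting interval of the fold that included 1. The ratios of Btg1 and Runx1 were smaller than the shift of -0.17 between the scalings, so their direction depended on the scaling. The highest Gimap ratio, 0.76 for Gimap4, lay just below that of Foxo1, at 0.79, and above that of Ets1, at 0.59.

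Other GTPase families were set beside the GIMAPs. Over all listed genes, 10.9% reached 2-fold upwards and 8.41% downwards. Of 20 interferon-inducible GTPases, which act in cell-autonomous defence, 6 exceeded 2-fold upwards and 0 downwards, around a median log2 ratio of 0.59. With scaling on the pan T cell markers, 4 of the 20 exceeded 2-fold upwards. Iigp1 was 6.71-fold higher (6.30 to 7.15) and Gbp11, from 18 control and 140 knockout counts, had a log2 ratio of 2.77, while Igtp and Gbp3 were 1.28-fold and 1.14-fold lower. Several of these genes have near-identical copies, among them Tgtp1 and Tgtp2 and the Gbp genes, so their single values are uncertain. Septins, cytoskeletal GTPases, had 7 listed genes, of which 1 exceeded 2-fold downwards and 0 upwards, around a median of -0.19; Sept11 was 3.57-fold lower (3.29 to 3.88) and Sept8 1.70-fold higher (1.30 to 2.25). In the GIMAP family 0 of 8 passed 2-fold in either direction. These lists differ in size and were not tested against each other.

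**Figure D4:**
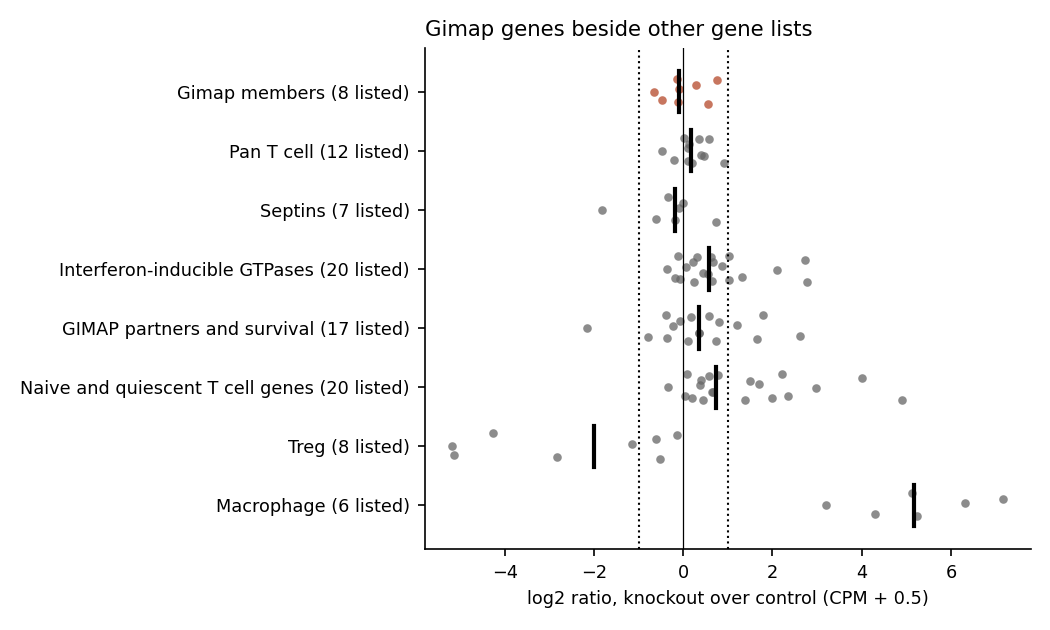
Log2 ratios of knockout over control on CPM + 0.5 for the Gimap genes (red) and for the members of 7 other lists (grey), 1 point per listed gene, with black bars at the medians and dotted lines at 2-fold. The Gimap points lie between -0.66 and 0.76 and the pan T cell points between -0.48 and 0.91, whereas the Treg and macrophage medians are at -1.99 and 5.18.

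The remaining marker lists give the setting of these values. Their counts past 2-fold stand beside 10.9% upwards and 8.41% downwards over all listed genes. Among 9 listed markers of dendritic cells, 6 exceeded 2-fold upwards and 2 downwards (median log2 ratio 1.38), with Cd74 the most abundant at 1068 CPM against 362 CPM. The 2 lower ones were Irf8 and Xcr1, at log2 ratios of -1.38 and -1.64. Of 6 listed natural killer and CD8 T cell markers, 4 exceeded 2-fold upwards and 1 downwards (median 1.62). The 3 listed markers of B cells had a median of -0.27, with Ighm at 2.27-fold higher. Of 5 listed stromal markers, 3 exceeded 2-fold upwards, Dcn, Thy1 and Dpp4 (median 1.70). Mfap5 and Ly6a were lower, Ly6a with 4477 CPM in the control and 2499 CPM in the knockout, at -0.84. The summed stromal level was 1.61-fold lower in the knockout library, at 2806 CPM against 4522 CPM in the control. Ly6a made up most of both sums, so this fold mainly reflects that gene. Whether the counts of these genes came from stromal cells was not tested. B cells and natural killer cells express GIMAP genes too, and the part of such cells in the Gimap levels was not tested. Their summed marker levels in the knockout and control libraries were 293 CPM and 151 CPM for B cells and 405 CPM and 138 CPM for natural killer and CD8 T cells. Ighm alone gave 264 CPM and 116 CPM of the B cell sums, while Cd79b and Igkc were lower in the knockout library. Tyrobp alone gave 255 CPM and 8.35 CPM of the other sums. Nkg7, Klrk1 and Klrd1 were higher and Gzma and Cd8b1 lower in the knockout library.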

How the data were processed

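RNA was sequenced from 2 libraries of sorted adipose Tregs, 1 per genotype, and samples were assigned by the genotype label. Trizol RNA was sequenced as 150 bp paired-end reads, per the labels' protocols. The submitters' processing notes name TopHat2 2.0.12 and Bowtie2 2.2.3, HTSeq 0.6.1, edgeR and the build mm8. The annotation, strand setting and treatment of shared reads were not given in the sources. The authors deposited 1 table of whole-number counts per gene, not normalized. Per the file headers, the table also holds the authors' edgeR log2 values and a likelihood ratio score. The authors' p-value columns were not used, because there is 1 library per genotype. The signed ratio of raw counts that the authors deposited, a score here, was not used. Their mean count, also a score here, was used only for the lowest mean given next. No gene with a mean under 50.5 counts is listed. In 14 rows a symbol turned into a date was restored by its Ensembl ID; 10200 IDs were found in GENCODE M21.

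Counts were scaled by TMM (edgeR 4.0.16, R 4.3.3). Log2 ratios used CPM + 0.5, and a gene was counted as different at 2-fold or more. A printed fold is the ratio of scaled counts whose interval is the Clopper-Pearson interval of the binomial conditional on both counts (scipy 1.17.1); intervals cover counting error only, and PCR copies of a molecule are counted as separate reads. Ratios between genes were compared by the conditional odds ratio. The script was tested on simulated data. Named genes were Hif1a, the members, the listed neighbours and, for each list, up to 2 genes at each end and the most abundant; further list genes, Gm28053 and Gimap1os were chosen after their values or overlaps were seen. The members and lists were chosen with earlier results of these data known. Alternatives were other scalings (including DESeq2 1.42.0 size factors), pseudocounts, thresholds, a level filter, the authors' log2 values and a lowess correction for transcript length (statsmodels 0.14.6).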

Additional observations from a re-analysis of the deposited data

How the results depend on the processing

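Depth did not limit the member values, whose lowest count was 1977, but 1 library per genotype leaves the spread between animals unknown. Of 72 alternative log2 ratios of the members, 0 passed 2-fold and 2 changed sign, Gimap1 at 0.08 and Gimap9 at 0.08 after the length correction. The median member ratio, -0.10, was 0.082 after the length correction and -0.27 with pan T cell scaling, in which those markers have a median ratio of 0. The log2 fold of the family sum, 0.22, was 0.26 with total-count scaling and 0.055 with pan T cell scaling. At a threshold of 1.5-fold, 1 member (Gimap4) was higher and 1 (Gimap5) lower, among 2067 higher and 1886 lower genes in all; at 4-fold these were 350 and 161. The B cell marker median, -0.27, was -0.43 with pan T cell scaling. The causes were not tested. Of 95 alternative list medians, 94 stayed within an interval of the median based on member ranks. That interval ran from the lowest to the highest gene for septins, Tregs, macrophages, B cells, natural killer and CD8 T cells, endothelium and stroma. Staying within it therefore says little about those lists. Of 240 alternative list counts, 223 stayed within 1.5 times. Of the other 17, all but 1 came from the thresholds. No paired analysis was possible because there is 1 library per genotype, and for the same reason no replicate could be left out.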
